A study of Homo sapiens with 12 samples.

Results

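Interferon-stimulated genes are the genes that a cell switches on when interferon, an antiviral cytokine, reaches its receptor. A list of 39 of them was drawn up by name and function with earlier results of these data known. It was followed in RNA-seq counts from human cells labelled as the liver cancer lines Hep-3B and Huh-7. All 39 symbols matched an Ensembl ID. The table of the libraries labelled Hep-3B holds 25720 genes and lists 38 of the 39, without RSAD2, and the Huh-7 table holds 25714 genes and lists all 39. A filter on low counts left 36 members tested under the Hep-3B label and 32 in Huh-7, with 31 tested in both.

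The series asked what happens to transcription when ARD1 is lowered. ARD1, today named NAA10, is the enzyme subunit of NatA, a complex that places acetyl groups on the first residue of newly made proteins. Cells labelled as the established hepatoma lines Hep-3B and Huh-7 received either a negative-control siRNA (control) or an siRNA against ARD1 (siARD1). Each of the 4 groups holds 3 libraries. The labels name no interferon treatment, and both arms of each line were transfected with siRNA, so an untransfected level is not part of the comparison. The labels do not say whether the 3 libraries of a group came from separate cultures or whether siARD1 is a single siRNA, and p-values therefore measure only the spread between these libraries. Total counts ran from 17327615 to 25960237 per library, so that 1 count was worth 0.0411 to 0.0615 CPM, the normalised read count scaled to library size.

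The targeted gene was lower after siARD1 in both lines. NAA10 stood at 51.6, 62.2 and 62.5 CPM in the controls labelled Hep-3B and at 11.5, 16.6 and 15.4 after siARD1 (log2 fold change -2.01, SE 0.12, edgeR adjusted p = 1.36e-07). In Huh-7 it stood at 156, 147 and 192 CPM in the controls and at 12.3, 9.24 and 9.38 after siARD1 (-3.98, SE 0.13, adjusted p = 1.66e-08). Hep-3B is known to make albumin and alpha-fetoprotein, but ALB reached 6.58 CPM and AFP 2.09 CPM at most in the 6 libraries so labelled, against at least 10012 and 2981 CPM in Huh-7. FGB and HNF4A were present under that label, with control means of 345 and 47.3 CPM, against 1754 and 331 CPM in Huh-7. FGB made up most of the hepatocyte sum of these controls given below. All 8 hepatocyte markers followed here were higher in the Huh-7 controls. From the ALB and AFP levels, the cell identity of the 6 libraries labelled Hep-3B is in doubt, and they are named by their label throughout. Of the leukocyte markers, PTPRC was at or under 0.431 CPM in every library and CD3E was listed in neither table. The summed leukocyte markers were 2.3 to 3.7 CPM in the controls and 1.8 to 2.5 CPM after siARD1 under the Hep-3B label. The Huh-7 sums were 88.8 to 94.8 and 90.4 to 107.6 CPM, nearly all of it LYZ and CD14, and the tested ones, CD14 in both lines and LYZ in Huh-7, had adjusted p from 0.135 to 0.279. The summed hepatocyte markers went from 398 to 482 CPM to 209 to 216 CPM under the Hep-3B label, where 4 of 6 tested fell, and from 28294 to 29533 CPM to 22621 to 26110.5 CPM in Huh-7, where 3 of 8 fell. In the controls, the summed fibroblast markers were 172 to 184 CPM under the Hep-3B label and 31.8 to 36.3 CPM in Huh-7. The summed endothelial markers were 56.5 to 69.8 and 12.5 to 13.6 CPM. LUM, with control means of 150 against 1.07 CPM, and KDR, with 40.7 against 0.014 CPM, held most of the sums under that label. PDGFRB went the other way, at 0.249 against 7.86 CPM, and COL1A2 was listed in Huh-7 only. Of 4 fibroblast markers tested in each line, 1 rose under the Hep-3B label and 2 fell in Huh-7. Of the endothelial markers, KDR rose and PECAM1 fell under the Hep-3B label, and the 1 tested in Huh-7 did not pass. Of all genes, the same test called 16.8% higher and 15.3% lower under the Hep-3B label. In Huh-7 it called 21.2% higher and 18.9% lower. The fibroblast and endothelial counts rest on too few genes to be set apart from these shares. The part of any of these shifts in the results below was not tested.

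Type I and type III interferons signal through receptor-bound JAK kinases to STAT proteins, among them STAT2, which joins IRF9 in a complex that binds the interferon-stimulated response element (ISRE). STAT dimers formed after interferon gamma bind the gamma-activated site (GAS). The proteins made in response sense viral RNA, block its translation, degrade it or tag proteins with ISG15, and several of them, such as STAT2, IRF9 and IRF7, feed back into the same pathway. Hepatocytes and liver cancer cells can mount this response, for instance during infection with hepatitis viruses.

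Promoter windows of 34 members, from 250 bases before to 50 bases after the annotated start, came from RefSeq (GRCh38.p14), and those of OASL, OAS2, IRF7, USP18 and IFIT2 were not used here. The ISRE core was searched as GAAA, any 2 bases and GAAA, and the GAS core as TTCNNNGAA, on both strands. Another form with 1 base fewer between the repeats, GAAANGAAA, was added after the OAS1 window had been seen, and it can overlap an ISRE core. The ISRE core was present in 21 of 34 members (61.8%), against 4.38% of all 27305 genes with a window. The shorter form was present in 14 (41.2%, against 3.87%), and at least 1 of the 2 forms in 27 (79.4%, against 7.83%). The GAS core was present in 9 (26.5%, against 9.38%). The 3 STAT and IRF regulators with a window had neither ISRE form, and 2 of them, IRF1 and IRF9, had a GAS core. A match describes the letters of the window and not a bound site.

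The sequences below belong to members whose levels moved the same way in both lines (IFIT1, ISG15, IRF1), in opposite ways (OAS1, PARP9 and DTX3L) or in Huh-7 (IFIT3, MX1), with the motif in capitals. It is an ISRE core except in IRF1, where it is a GAS core, and in OAS1, whose window holds no ISRE core and where the capitals mark the shorter form that was added after that window had been seen. IFIT1 is shown for chr10:89392423-89392545 on its own, plus strand, where its ISRE cores read as their reverse complement. ISG15 is shown for chr1:1013297-1013422 (plus strand, 2 overlapping cores) and IRF1 for chr5:132490799-132490973 (minus strand, a GAS core). Shorter stretches around 1 motif are given for OAS1 (chr12:112906935-112906963, plus strand), for IFIT3 (chr10:89332425-89332454, minus strand) and for MX1 (chr21:41420559-41420588, plus strand). A single core at chr3:122564332-122564341 lies in the windows of both PARP9 and DTX3L, which face away from each other, and is shown for chr3:122564322-122564351 on the plus strand.
IFIT1: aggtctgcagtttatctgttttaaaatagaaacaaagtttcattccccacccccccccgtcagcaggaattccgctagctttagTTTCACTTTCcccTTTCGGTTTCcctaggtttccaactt
ISG15: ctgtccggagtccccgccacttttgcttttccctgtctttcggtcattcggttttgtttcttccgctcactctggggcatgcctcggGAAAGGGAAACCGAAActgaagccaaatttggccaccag
IRF1: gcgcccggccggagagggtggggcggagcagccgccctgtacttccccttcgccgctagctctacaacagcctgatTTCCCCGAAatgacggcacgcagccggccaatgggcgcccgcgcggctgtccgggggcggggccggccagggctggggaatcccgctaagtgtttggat
OAS1: cccttctgagGAAACGAAAccaacagcag
PARP9 and DTX3L: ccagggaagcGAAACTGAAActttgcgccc
IFIT3: ctcttgagggGAAACTGAAAcagaatctgt
MX1: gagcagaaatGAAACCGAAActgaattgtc

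The basal levels, those of the control libraries, differed widely between the lines. Of 37 members in a fit of all 4 groups, 26 were higher in the controls labelled Hep-3B and 8 in those of Huh-7 (edgeR, Benjamini-Hochberg adjusted p under 0.05). Over all genes the same test called 80.7%, with 40.0% lower and 40.7% higher in Huh-7, so a difference between the lines was the rule for any gene. The median log2 difference, Huh-7 minus labelled Hep-3B, was -1.01 for the members and 0.03 for all genes. The line, the table and any difference in handling cannot be told apart in this comparison.

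**Figure D1:**
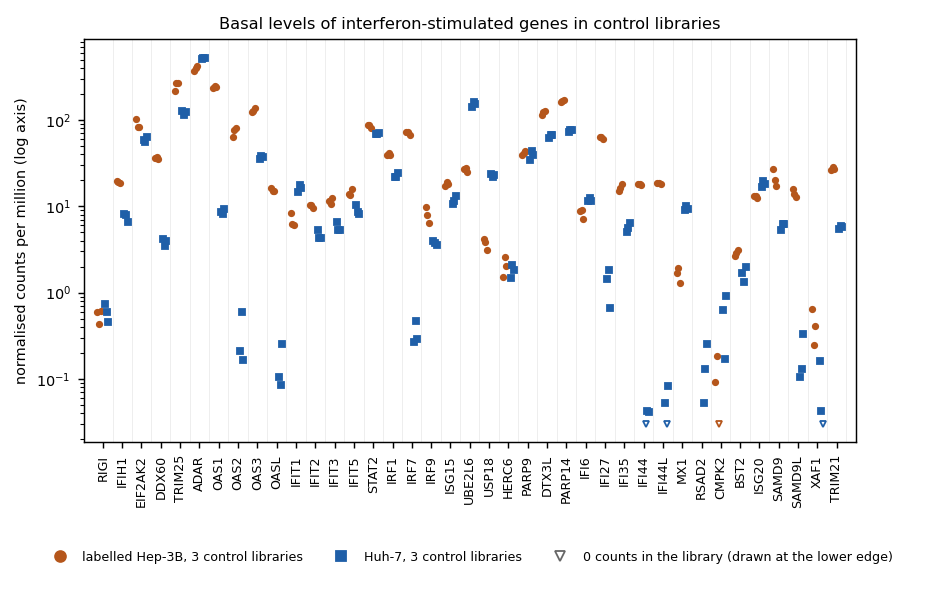
Basal level of each member in the 3 control libraries of each line, in CPM on a log axis, with open triangles for libraries with 0 counts. OAS2, OASL, IRF7, IFI44, IFI44L and SAMD9L sit far lower in Huh-7, while UBE2L6, USP18 and MX1 sit higher there.

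Several antiviral genes that were well expressed under the Hep-3B label were close to absent in Huh-7. OAS2, which makes the 2'-5' oligoadenylates that switch on RNase L, stood at 64.2, 75.8 and 80.5 CPM in the controls labelled Hep-3B and at 0.213, 0.604 and 0.168 CPM in those of Huh-7. IRF7, a transcription factor that drives interferon genes, stood at 72.4, 73.0 and 67.7 CPM against 0.266, 0.474 and 0.294 CPM. The groups lay far apart for both genes, by log2 differences of -7.75 (SE 0.21) and -7.64 (SE 0.15). OASL, an OAS relative that supports RIG-I signalling, differed by -6.61 (SE 0.25), the antiviral factor gene SAMD9L by -6.13 (SE 0.26), IFI27 by -5.59 (SE 0.15) and OAS1 by -4.80 (SE 0.09), with adjusted p from 5.68e-28 to 6.13e-19. IFI44 and IFI44L, neighbours on chromosome 1 that respond strongly to interferon, held 2 and 3 counts over the 3 Huh-7 controls against 1030 and 1043 under the Hep-3B label. Their ratios were 593 (95% counting interval 164 to 4902) and 400.2 (137 to 1944), and these intervals cover counting error only. Genes abundant in one line and nearly absent in the other gave a median trace of 0.0380% in the Huh-7 controls. They were chosen for a level at least 1000 times lower in Huh-7, so the choice itself capped this trace. IFI44 and OAS2 in Huh-7 were at 0.157 and 0.446% of their level under the Hep-3B label, 4.14 and 11.7 times that trace. Because of the cap, these multiples cannot show whether such faint reads are real. What such traces add to the faintest levels was not tested.

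The 8 members higher in Huh-7 were 7 effectors and ADAR, which is grouped here with the RNA sensors and their modulators. UBE2L6, the conjugating enzyme that hands ISG15 to its targets, stood at 141, 159.7 and 151 CPM in the Huh-7 controls against 26.8, 27.7 and 25.2 CPM under the Hep-3B label (log2 difference 2.51, SE 0.08). USP18, which removes ISG15 and dampens receptor signalling, stood at 23.6, 22.1 and 23.1 against 4.22, 3.81 and 3.10 CPM (2.62, SE 0.13). MX1, a dynamin-like GTPase that blocks viral replication, stood at 9.09, 10.2 and 9.35 against 1.67, 1.91 and 1.29 CPM (2.56, SE 0.17). These groups did not overlap. CMPK2 (2.64, SE 0.77) rested on 5 counts in the controls labelled Hep-3B, and IFIT1 (1.22), IFI6 (0.51), ISG20 (0.48) and ADAR (0.39) made up the rest, with adjusted p from 4.25e-22 to 0.00298 over the 8. RIGI, HERC6 and PARP9 did not pass the test. RIGI, the cytosolic RNA sensor RIG-I, was under 1 CPM in all 12 libraries.

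Levels were also divided by exonic length, taken over all annotated exons of a gene. That length can exceed the length of the transcript in use, so the order between genes is only rough. By this measure the highest control levels under the Hep-3B label were those of OAS1 (48.7 CPM per kilobase), ADAR (41.0), IRF7 (27.0) and TRIM25 (26.4). In Huh-7 they were those of UBE2L6 (68.6 CPM per kilobase), ADAR (53.8), IFI6 (13.7) and TRIM25 (12.8). ADAR, the enzyme that edits adenosines in double-stranded RNA, and TRIM25, the ubiquitin ligase that activates RIG-I, were among the 4 highest in both by this measure.

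After siARD1, the members moved in both directions under the Hep-3B label and mostly upwards in Huh-7. Under the Hep-3B label 4 members rose and 7 fell, 11 of 36 tested or 30.6%, where 32.2% of all genes passed the same test (16.8% higher and 15.3% lower). The share of members called was thus near that of all genes, and their median log2 fold change of -0.05 lay beside -0.01 for all genes. In Huh-7, 14 members rose and 5 fell, 19 of 32 tested or 59.4%, where 40.1% of all genes passed (21.2% higher and 18.9% lower). The members that rose made up 43.8% of those tested, and the median was 0.25 beside -0.01 for all genes. With upper-quartile scaling in place of TMM, the share of called genes that were higher went from 52.9 to 39.7% in Huh-7, and 12 members rose and 5 fell. The number that fell went from 7 to 4 under the Hep-3B label without control 2, control 3 or siARD1 1, and from 5 to 3 in Huh-7 without control 2, siARD1 1 or siARD1 2. In bulk RNA, a change in how many cells express a gene and a change in RNA per cell cannot be told apart.

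**Figure D2:**
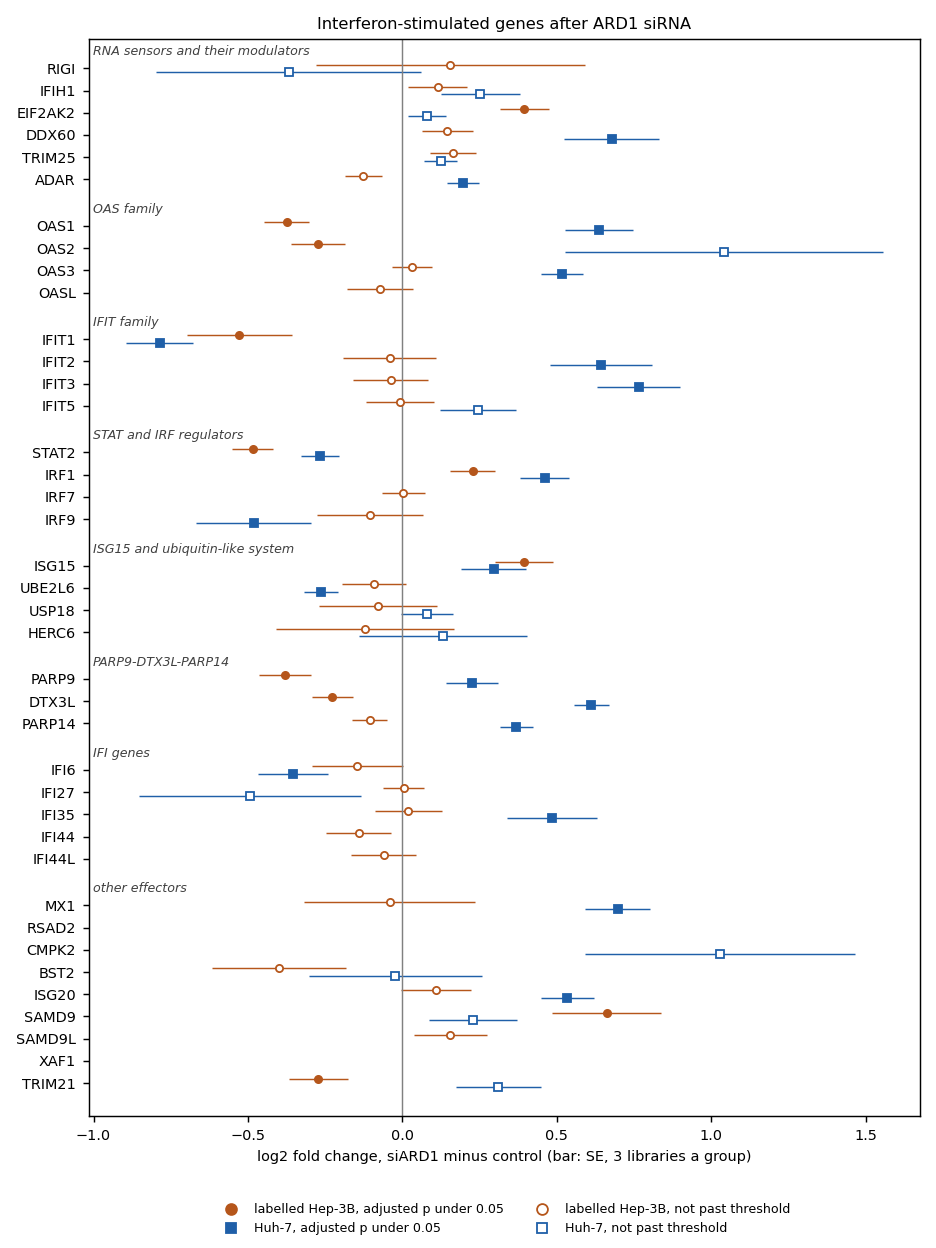
Log2 fold change (siARD1 minus control) of every tested member by role, with bars for the SE over 3 libraries a group, circles for libraries labelled Hep-3B and squares for Huh-7, filled where the adjusted p was under 0.05. Filled squares lie mainly right of 0, with 14 higher and 5 lower, while filled circles lie on both sides, with 4 higher and 7 lower.

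Of the 31 members tested in both lines, IFIT1 and STAT2 fell in both and IRF1 and ISG15 rose in both. OAS1, PARP9 and DTX3L fell under the Hep-3B label and rose in Huh-7, and 8 members passed the test in neither line. The difference between the lines in the siARD1 effect, tested as an interaction, passed for 14 of 37 members, against 31.4% of all genes. For 13 of these 14 the effect was more positive in Huh-7, and EIF2AK2 was the exception. Of all genes, 15.2% passed with a more positive and 16.2% with a more negative effect in Huh-7.

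By function, 1 of 6 tested RNA sensors and their modulators changed under the Hep-3B label and 2 of 6 in Huh-7, all upwards. These shares of 16.7 and 33.3% stood beside 32.2 and 40.1% of all genes, and with only 6 sensors they cannot be set apart from them. Of the effectors, the genes outside the sensor and regulator groups, 2 rose and 6 fell of 26 tested under the Hep-3B label, and 11 rose and 3 fell of 23 in Huh-7, so that 30.8 and 60.9% were called. This grouping counts the OAS genes as effectors, although OAS1, OAS2 and OAS3 also answer double-stranded RNA. The OAS genes held 2 of these 6 falls, 2 of these 11 rises and 3 of the effector interactions that passed. The comparison of sensors with effectors therefore depends on the grouping. Of the STAT and IRF regulators, 1 rose and 1 fell of 4 under the Hep-3B label, and 1 rose and 2 fell of 3 in Huh-7. The interaction passed for 3 of 6 sensors, for 11 of 27 effectors (40.7%), all more positive in Huh-7, and for 0 of 4 regulators by edgeR (1 of 4 at an unadjusted p under 0.05 and 1 of 4 by DESeq2). Of all genes 31.4% passed, and counts over 6 sensors or 4 regulators cannot be set apart from that share.

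Among the sensors, EIF2AK2 rose under the Hep-3B label. It encodes PKR, a kinase that halts translation when it binds double-stranded RNA. It stood at 103, 82.4 and 82.3 CPM in the controls labelled Hep-3B and at 118, 118 and 116 after siARD1 (log2 fold change 0.39, SE 0.08, edgeR adjusted p = 0.00122). The Huh-7 values were 58.8, 56.0 and 62.8 CPM and 64.5, 61.1 and 59.9 CPM (0.08, SE 0.06, adjusted p = 0.321). The groups were apart under the Hep-3B label, with 1 control well above the others, and overlapped in Huh-7. The interaction was -0.33 (SE 0.10, adjusted p = 0.0155).

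DDX60, a helicase that acts with RIG-I-like sensors, rose in Huh-7 from 4.20, 3.45 and 3.94 CPM to 6.34, 5.79 and 6.14 CPM (0.68, SE 0.15, adjusted p = 0.00127). Its values under the Hep-3B label, 36.3, 37.6 and 35.4 CPM and then 36.5, 42.2 and 41.9 CPM, did not pass (0.15, SE 0.08, adjusted p = 0.187). The Huh-7 groups were apart, from a basal level 9.45-fold lower, and the interaction was 0.52 (SE 0.16, adjusted p = 0.0114). ADAR rose in Huh-7 from 515, 521 and 526 CPM to 594, 569.8 and 604 CPM (0.20, SE 0.05, adjusted p = 0.00397). The values labelled Hep-3B were 373, 400.4 and 419 CPM and then 368, 354 and 369 CPM (-0.13, SE 0.06, adjusted p = 0.115). Both pairs of groups were apart, although the lower level under the Hep-3B label did not pass, and the interaction was 0.31 (SE 0.08, adjusted p = 0.0037).

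RIGI, IFIH1 and TRIM25 passed in neither line. IFIH1, the sensor MDA5 for long double-stranded RNA, had log2 fold changes of 0.12 (SE 0.10) under the Hep-3B label and 0.25 (SE 0.13) in Huh-7. TRIM25 had 0.16 (SE 0.07, passing with no filter at an adjusted p of 0.0395) and 0.12 (SE 0.05, passing without Huh-7 control 1 at 0.0361), and RIGI 0.16 (SE 0.44) and -0.37 (SE 0.43) on 28 to 39 counts a group. The interaction of EIF2AK2 was lost without control 2 (-0.25, adjusted p = 0.0796) or control 3 (-0.27, adjusted p = 0.0551) of the Hep-3B label or without Huh-7 control 3 (-0.29, adjusted p = 0.0543), and that of DDX60 without Huh-7 control 2 (0.44, adjusted p = 0.0504). The ADAR call stayed on its side of the threshold in Huh-7 under every setting tried, while under the Hep-3B label it passed with upper-quartile factors (-0.16, adjusted p = 0.0424) and without control 1 (-0.17, adjusted p = 0.0288).

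The OAS genes, of which OAS1, OAS3 and OAS2 lie side by side on chromosome 12 (112906777 to 113011723, GRCh38), had 0 higher and 2 lower of 4 tested under the Hep-3B label and 2 higher and 0 lower of 3 in Huh-7. Of all genes, 16.8% were higher and 15.3% lower under the Hep-3B label, and 21.2% higher and 18.9% lower in Huh-7. Counts over 3 or 4 genes cannot be set apart from these shares. OAS1, OAS2 and OAS3 encode enzymes that answer double-stranded RNA by making 2'-5' oligoadenylates. OAS1 passed in both lines, in opposite directions. It fell under the Hep-3B label from 237, 248 and 238 CPM to 170.4, 210.4 and 176 CPM (log2 fold change -0.37, SE 0.07, edgeR adjusted p = 0.000976). It rose in Huh-7 from 8.62, 8.11 and 9.23 CPM to 12.6, 14.4 and 12.8 CPM (0.64, SE 0.11, adjusted p = 9.1e-05). In both lines the groups were apart, and the interaction of 0.99 (SE 0.12, adjusted p = 3.48e-07) was the largest among members with at least 100 counts in every group.

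OAS3, whose product binds long double-stranded RNA, rose in Huh-7 from 35.6, 38.7 and 37.3 CPM to 49.9, 55.3 and 52.7 CPM (0.52, SE 0.07, adjusted p = 2.63e-06). Its values under the Hep-3B label overlapped, at 124, 128 and 139 CPM and then 126, 133 and 139 CPM (0.03, SE 0.07, adjusted p = 0.746). The interaction was 0.47 (SE 0.09, adjusted p = 0.000274). OAS2 fell under the Hep-3B label from 64.2, 75.8 and 80.5 CPM to 56.4, 66.3 and 59.3 CPM (-0.27, SE 0.09, adjusted p = 0.0247), with an overlap at control 1. In Huh-7 it rested on 22 and 42 counts, at 0.213, 0.604 and 0.168 CPM and then 0.387, 0.583 and 1.08 CPM (1.04, SE 0.51, adjusted p = 0.114, and 0.028 without control 2). The interaction was 1.29 (SE 0.48, adjusted p = 0.0471). OASL had -0.07 (SE 0.11) under the Hep-3B label and stayed below the filter in Huh-7.

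The calls of OAS1 and OAS3 kept their side of the threshold under every setting tried. The OAS2 call under the Hep-3B label was lost with all 4 groups in one fit (adjusted p = 0.0637) and without control 2 (0.0853), control 3 (0.124), siARD1 1 (0.115) or siARD1 3 (0.0798), all given as adjusted p. Its interaction was lost without any of 8 of the 12 libraries (adjusted p from 0.0611 to 0.273), the exceptions being control 1 and siARD1 2 of the Hep-3B label and control 2 and siARD1 1 of Huh-7.

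The IFIT genes sit together on chromosome 10 (89283694 to 89421001, GRCh38), and the IFIT1 protein binds viral RNA that lacks host cap marks. IFIT1 fell in both lines, while IFIT2 and IFIT3 rose in Huh-7. The IFIT1 levels went down under the Hep-3B label from 8.48, 6.21 and 6.15 CPM to 4.76, 4.38 and 5.34 CPM (log2 fold change -0.53, SE 0.17, edgeR adjusted p = 0.0254) and in Huh-7 from 14.8, 17.5 and 16.4 CPM to 10.2, 8.90 and 8.79 CPM (-0.79, SE 0.11, adjusted p = 5.48e-06). The groups were apart in both lines, and the interaction of -0.27 (SE 0.20, adjusted p = 0.322) did not pass.

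IFIT3, which pairs with IFIT1 in the cell, rose in Huh-7 from 6.65, 5.39 and 5.33 CPM to 8.86, 9.53 and 10.6 CPM (0.76, SE 0.14, adjusted p = 0.000106). Under the Hep-3B label its values of 11.4, 10.7 and 12.6 CPM and 12.1, 11.5 and 10.3 CPM overlapped (-0.04, SE 0.12, adjusted p = 0.842), and the interaction was 0.79 (SE 0.18, adjusted p = 0.00149). IFIT2, which joins the same complex, rose in Huh-7 from 5.26, 4.27 and 4.32 CPM to 8.62, 6.95 and 5.70 CPM (0.64, SE 0.17, adjusted p = 0.00348). Under the Hep-3B label it stood at 10.4, 10.3 and 9.51 CPM and then at 9.58, 11.95 and 7.84 CPM (-0.04, SE 0.15, adjusted p = 0.861). The Huh-7 groups were apart for both genes and the groups labelled Hep-3B overlapped, with an IFIT2 interaction of 0.67 (SE 0.23, adjusted p = 0.0265). IFIT5 had -0.01 (SE 0.11) and 0.25 (SE 0.12) and passed in neither line, except in Huh-7 without control 1 (0.36, adjusted p = 0.0417).

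IFIT1 and IFIT3 thus both carry ISRE cores, as printed above, and moved in opposite directions in Huh-7. The IFIT1 call under the Hep-3B label was lost without control 1 (-0.35, adjusted p = 0.149), siARD1 1 (-0.52, adjusted p = 0.0711) or siARD1 2 (-0.46, adjusted p = 0.0815), while its Huh-7 call was kept under every setting. The IFIT2 interaction was lost without siARD1 3 of the Hep-3B label (0.52, adjusted p = 0.0896) and without control 2 (0.62, 0.0675), control 3 (0.62, 0.0704) or siARD1 1 (0.51, 0.114) of Huh-7, each with its adjusted p.

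Among the STAT and IRF regulators, STAT2 fell in both lines. It is the subunit that activates transcription in the ISRE-binding complex. It went from 87.8, 88.1 and 81.6 CPM to 62.3, 59.5 and 62.2 CPM under the Hep-3B label (log2 fold change -0.48, SE 0.07, edgeR adjusted p = 4.99e-05) and from 69.6, 69.8 and 70.8 CPM to 53.6, 59.7 and 59.2 CPM in Huh-7 (-0.27, SE 0.06, adjusted p = 0.00127). The groups did not overlap in either line. The interaction of 0.20 (SE 0.09) had an adjusted p of 0.0942, and of 0.0489 by DESeq2 and 0.048 without Huh-7 siARD1 1.

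IRF1, a factor that binds ISRE-like elements and is itself induced through a GAS, rose in both lines. Its values went from 38.9, 41.8 and 39.1 CPM to 45.9, 46.8 and 47.3 CPM under the Hep-3B label (0.23, SE 0.07, edgeR adjusted p = 0.0262). In Huh-7 they went from 21.6, 21.9 and 24.2 CPM to 28.9, 31.3 and 32.0 CPM (0.46, SE 0.08, adjusted p = 8.12e-05). All siARD1 libraries were above all controls of their line, and the interaction was 0.22 (SE 0.11, adjusted p = 0.138). Of the exonic bases of IRF1, 22.0% overlap C5orf56 on the opposite strand, and reads of the 2 cannot be told apart where counting ignored strand. The call under the Hep-3B label was lost with upper-quartile factors (0.19, adjusted p = 0.0555) and without control 3 (0.21, 0.0712), siARD1 1 (0.24, 0.0708), siARD1 2 (0.23, 0.0526) or siARD1 3 (0.22, 0.0762), each with its adjusted p.

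IRF9, the DNA-binding subunit of the same complex, fell in Huh-7 from 3.99, 3.75 and 3.52 CPM to 2.62, 2.53 and 2.80 CPM (-0.48, SE 0.19, adjusted p = 0.0423). That call was lost by DESeq2 (adjusted p = 0.0874), without a filter (0.0714) and without any 1 of the 6 libraries (0.0524 to 0.113). IRF9 shares 48.4% of its exonic bases with AL136295.5 on the same strand, so its level is uncertain. Libraries labelled Hep-3B gave -0.10 (SE 0.17), with overlapping groups at 6.41 to 9.91 CPM. IRF7 had 0.00 (SE 0.07) under the Hep-3B label and stayed below the filter in Huh-7, on 23 and 15 counts.

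ISG15, a ubiquitin-like protein that is attached to newly made proteins, rose in both lines. It went from 17.3, 18.9 and 18.2 CPM to 24.7, 23.2 and 23.6 CPM under the Hep-3B label (log2 fold change 0.39, SE 0.09, edgeR adjusted p = 0.00401) and from 10.5, 11.6 and 13.2 CPM to 14.3, 14.0 and 14.7 CPM in Huh-7 (0.30, SE 0.10, adjusted p = 0.0278). Every siARD1 library was above every control of its line, and the interaction was -0.12 (SE 0.14, adjusted p = 0.583). The Huh-7 call was lost with upper-quartile factors (0.23, adjusted p = 0.0808), by DESeq2 (0.29, 0.0529) and without control 1 (0.23, 0.112), control 2 (0.29, 0.0746), siARD1 1 (0.30, 0.06) or siARD1 3 (0.28, 0.0607), each with its adjusted p.

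Of the genes that act on ISG15, UBE2L6 alone passed the test, in Huh-7. It fell there from 141, 159.7 and 151 CPM to 127, 119 and 127 CPM (-0.26, SE 0.06, adjusted p = 0.000625) and had -0.09 (SE 0.10) under the Hep-3B label. USP18 had -0.08 (SE 0.19) and 0.08 (SE 0.09), and HERC6, an ISG15 ligase relative, had -0.12 (SE 0.29) and 0.13 (SE 0.27) at 1.18 to 2.58 CPM. The interaction passed for 0 of the 4 genes by edgeR, with 0 at an unadjusted p under 0.05 and 0 by DESeq2. It passed for 31.4% of all genes by edgeR, and a count over 4 genes cannot be set apart from that share.

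PARP9 and DTX3L, which form one ADP-ribosylation and ubiquitin ligase complex at chr3:122527924-122575203, moved together and in opposite directions in the lines. DTX3L fell under the Hep-3B label from 115, 123 and 128 CPM to 96.9, 108 and 107 CPM (log2 fold change -0.23, SE 0.07, edgeR adjusted p = 0.0161). It rose in Huh-7 from 62.2, 67.9 and 66.8 CPM to 95.3, 104 and 98.0 CPM (0.61, SE 0.06, adjusted p = 3.62e-08). The groups were apart both times, and the interaction was 0.82 (SE 0.09, adjusted p = 9.56e-08).

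PARP9 fell under the Hep-3B label from 39.7, 41.8 and 43.5 CPM to 29.6, 31.6 and 34.5 CPM (-0.38, SE 0.08, adjusted p = 0.00233). In Huh-7 it went from 34.1, 43.4 and 39.8 CPM to 41.0, 45.2 and 49.5 CPM (0.22, SE 0.08, adjusted p = 0.0402), with overlapping groups. The interaction was 0.59 (SE 0.13, adjusted p = 0.000606). PARP14, a larger ADP-ribosyltransferase that lies nearby, rose in Huh-7 from 73.4, 77.4 and 76.6 CPM to 94.3, 98.7 and 97.1 CPM (0.37, SE 0.05, adjusted p = 1.2e-05). Its values of 162, 166 and 169 CPM and 157, 153 and 151 CPM under the Hep-3B label did not pass (-0.11, SE 0.06, adjusted p = 0.173), although the groups were apart. The interaction was 0.46 (SE 0.08, adjusted p = 5.32e-05).

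The interactions of all 3 genes kept their side of the threshold under every setting tried. The rise of PARP9 in Huh-7 was lost with upper-quartile factors (adjusted p = 0.134), by DESeq2 (0.0583), in the fit of 4 groups (0.0709) and without control 1 (0.189), control 3 (0.0869), siARD1 2 (0.0892) or siARD1 3 (0.154), while the fall of DTX3L under the Hep-3B label was lost without control 2 (0.0557), control 3 (0.0738) or siARD1 1 (0.111), all as adjusted p. Of their exonic bases, 2.43% of PARP9 and 3.7% of DTX3L overlap each other on opposite strands, and how the counting treated strand is not given in the sources used here.

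**Figure D3:**
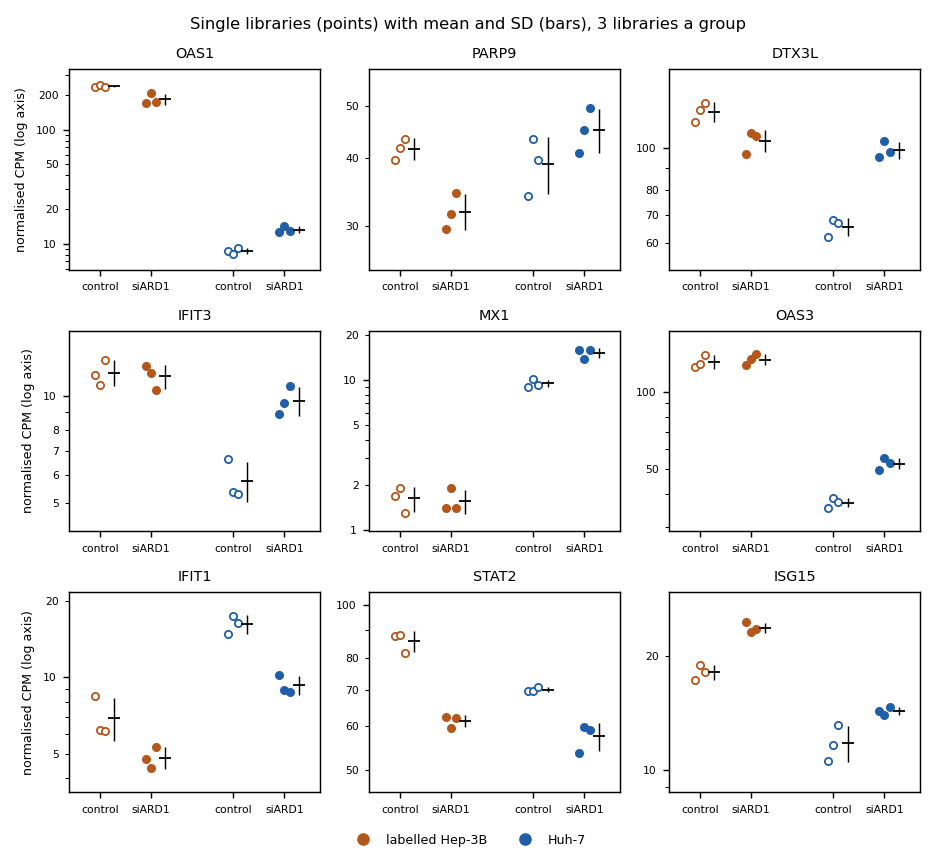
Normalised read count (CPM, log axis) of 9 members in all 12 libraries, open points for controls, filled points for siARD1, bars for the mean and SD of 3 libraries. OAS1, PARP9 and DTX3L go down under the Hep-3B label and up in Huh-7, IFIT3, MX1 and OAS3 go up in Huh-7, IFIT1 and STAT2 go down in both, and ISG15 goes up in both.

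The products of the IFI genes are interferon-induced proteins of varied function. Of these genes, 0 of 5 passed under the Hep-3B label by edgeR, with 0 at an unadjusted p under 0.05 and 0 by DESeq2. Of all genes, 32.2% passed by edgeR under that label, and a count over 5 genes cannot be set apart from that share. IFI27 went there from 62.5 ± 2.13 to 62.6 ± 1.55 CPM, IFI44 from 18.0 ± 0.427 to 16.2 ± 1.63 CPM and IFI6 from 8.37 ± 1.08 to 7.56 ± 0.772 CPM (SD, n = 3). In Huh-7, IFI6, a mitochondrial and endoplasmic reticulum protein that limits apoptosis and viral replication, fell from 11.6, 12.4 and 11.7 CPM to 8.57, 8.70 and 10.3 CPM (log2 fold change -0.35, SE 0.11, edgeR adjusted p = 0.0161). IFI35, a partner of NMI, rose there from 5.05, 5.65 and 6.33 CPM to 9.35, 7.15 and 7.12 CPM (0.48, SE 0.15, adjusted p = 0.0112). The groups were apart for both. The IFI6 call was lost without control 2 (adjusted p = 0.073), siARD1 1 (0.0686) or siARD1 2 (0.0598), and the IFI35 call without siARD1 1 (0.344, adjusted p = 0.0891).

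Among the other effectors, MX1 and ISG20 rose in Huh-7. MX1 went from 9.09, 10.2 and 9.35 CPM to 16.0, 14.0 and 15.9 CPM (log2 fold change 0.70, SE 0.11, edgeR adjusted p = 1.92e-05). Under the Hep-3B label it stood at 1.67, 1.91 and 1.29 CPM and then at 1.40, 1.89 and 1.40 CPM (-0.04, SE 0.28, adjusted p = 0.927). The Huh-7 groups were far apart and the groups labelled Hep-3B overlapped, with an interaction of 0.72 (SE 0.26, adjusted p = 0.0356).

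ISG20, an exonuclease for single-stranded RNA, went in Huh-7 from 16.6, 19.4 and 18.2 CPM to 26.7, 26.3 and 24.7 CPM (0.53, SE 0.09, adjusted p = 3.44e-05). Its values under the Hep-3B label overlapped, at 13.3, 13.0 and 12.4 CPM and then 12.7, 15.3 and 13.7 CPM (0.11, SE 0.11, adjusted p = 0.501). The interaction was 0.41 (SE 0.14, adjusted p = 0.0292). Both interactions were close to the threshold. That of MX1 was lost without any 1 of 8 libraries (adjusted p from 0.0619 to 0.104), namely controls 1 and 2 and siARD1 1 and 3 of the Hep-3B label and controls 1 and 3 and siARD1 1 and 3 of Huh-7. That of ISG20 was lost without siARD1 1 or 3 of the Hep-3B label or without control 1, control 3, siARD1 1 or siARD1 2 of Huh-7 (adjusted p from 0.0536 to 0.0851), while the rises of both genes within Huh-7 were kept under every setting tried.

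SAMD9, an antiviral factor that blocks translation, rose under the Hep-3B label from 27.1, 20.2 and 17.4 CPM to 29.3, 41.5 and 31.6 CPM (0.66, SE 0.18, adjusted p = 0.0186). Its neighbour SAMD9L had 0.16 (SE 0.12) there. In Huh-7, SAMD9 had 0.23 and did not pass. The SAMD9 interaction was -0.45 (SE 0.24, adjusted p = 0.161), and -0.63 without control 1 of the Hep-3B label (adjusted p = 0.0179). TRIM21, a cytosolic antibody receptor and ubiquitin ligase, fell under the Hep-3B label from 26.3, 28.2 and 27.2 CPM to 24.3, 23.1 and 20.3 CPM (-0.27, SE 0.09, adjusted p = 0.037). In Huh-7 it stood at 5.42, 5.86 and 5.83 CPM and then at 6.63, 6.61 and 7.76 CPM (0.31, SE 0.14, adjusted p = 0.0781). Its groups were apart in both lines, although the Huh-7 change did not pass, and the interaction was 0.56 (SE 0.16, adjusted p = 0.00722). The SAMD9 call was lost without control 2 (0.62, adjusted p = 0.0558) and that of TRIM21 without control 2 (-0.24, 0.117), control 3 (-0.27, 0.0778), siARD1 2 (-0.29, 0.0528) or siARD1 3 (-0.19, 0.184), each with its adjusted p.

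The remaining effectors were faint. BST2, which tethers virions to the cell surface, had -0.40 (SE 0.22, adjusted p = 0.173) under the Hep-3B label and -0.02 (SE 0.28) in Huh-7. CMPK2, a mitochondrial nucleotide kinase, went from 38 to 72 counts in Huh-7 (1.03, SE 0.44, adjusted p = 0.067) and passed there without control 3 (1.59, adjusted p = 0.0215), without siARD1 3 (1.27, adjusted p = 0.0259) or with no filter (1.03, adjusted p = 0.0287). SAMD9L went from 13 to 32 counts in Huh-7, below the filter. RSAD2, the gene of viperin, held 10 and 12 counts in Huh-7, and XAF1, a factor that promotes apoptosis, held 4 and 8 counts there and 26 and 23 under the Hep-3B label.

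The rest of the pathway was read from 7 lists of 71 genes, described by their counts alone. Each count is to be read beside the shares of all genes, 16.8% higher and 15.3% lower under the Hep-3B label and 21.2% higher and 18.9% lower in Huh-7. Of 9 interferon genes, the table labelled Hep-3B listed IFNB1 and IFNE, both below the filter, and the Huh-7 table listed 0. Those are named because they were the only ones listed. Of 6 receptor genes, 2 rose and 0 fell under the Hep-3B label, namely IFNAR1 of the type I receptor (0.69, SE 0.08, edgeR adjusted p = 1.36e-05) and IFNLR1 of the type III receptor (0.53, SE 0.11, adjusted p = 0.00165). In Huh-7, IFNGR1 of the gamma receptor rose (0.19, SE 0.06, adjusted p = 0.0171), a call lost with upper-quartile factors (0.12, adjusted p = 0.109) and without control 2 (0.14, 0.118) or siARD1 2 (0.18, 0.0507). The interaction passed for IFNAR1 (-0.55, adjusted p = 0.000445), IFNLR1 (-0.56, adjusted p = 0.00651) and IFNGR1 (0.24, adjusted p = 0.0322). The last was lost without siARD1 1 or 3 of the Hep-3B label or without control 2, siARD1 1 or siARD1 2 of Huh-7 (adjusted p from 0.055 to 0.114).

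Of 3 receptor kinases, 2 rose and 1 fell under the Hep-3B label, and 1 rose and 0 fell in Huh-7. JAK1 rose in both (0.34, SE 0.06, edgeR adjusted p = 0.000344, and 0.48, SE 0.05, adjusted p = 3.34e-07). TYK2 fell under the Hep-3B label (-0.29, SE 0.07, adjusted p = 0.00319) and had -0.10 (SE 0.06, adjusted p = 0.155) in Huh-7, where it passed with upper-quartile factors (-0.17, adjusted p = 0.0218). JAK2 rose under the Hep-3B label from 5.56, 6.64 and 7.85 CPM to 10.6, 10.7 and 9.24 CPM (0.60, SE 0.15, adjusted p = 0.00539), where the groups did not overlap, and had 0.04 (SE 0.11, adjusted p = 0.799) in Huh-7. Its interaction of -0.58 (SE 0.18) passed with an adjusted p of 0.0147, and was lost without control 1 of the Hep-3B label (-0.43, adjusted p = 0.0726).

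Upstream of interferon, genes of nucleic acid signalling had 0 higher and 3 lower of 11 under the Hep-3B label (27.3% lower, against 15.3% of all genes) and 5 higher and 0 lower of 9 in Huh-7 (55.6% higher, against 21.2%). Of the 3 genes named from this list, MYD88 passed in both lines, with opposite signs. MAVS, the mitochondrial adaptor of RIG-I and MDA5, fell under the Hep-3B label from 184, 199 and 192 CPM to 111, 129 and 124 CPM (-0.66, SE 0.07, edgeR adjusted p = 3.61e-06). Its Huh-7 values were 259.6, 272 and 269 CPM and 273, 254 and 283 CPM (0.03, SE 0.05, adjusted p = 0.641), so that the groups overlapped there. MYD88, a Toll-like receptor adaptor, fell under the Hep-3B label (-0.31, SE 0.09, adjusted p = 0.0119, lost without siARD1 3 at 0.0746) and rose in Huh-7 (0.61, SE 0.08, adjusted p = 2.44e-06). TRAF3, a ligase that relays both routes, rose in Huh-7 (0.55, SE 0.06, adjusted p = 3.96e-07) and had -0.01 (SE 0.08) under the Hep-3B label. The interaction passed for MAVS (0.67), MYD88 (0.90) and TRAF3 (0.54), with adjusted p from 1.02e-06 to 0.000166.

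**Figure D4:**
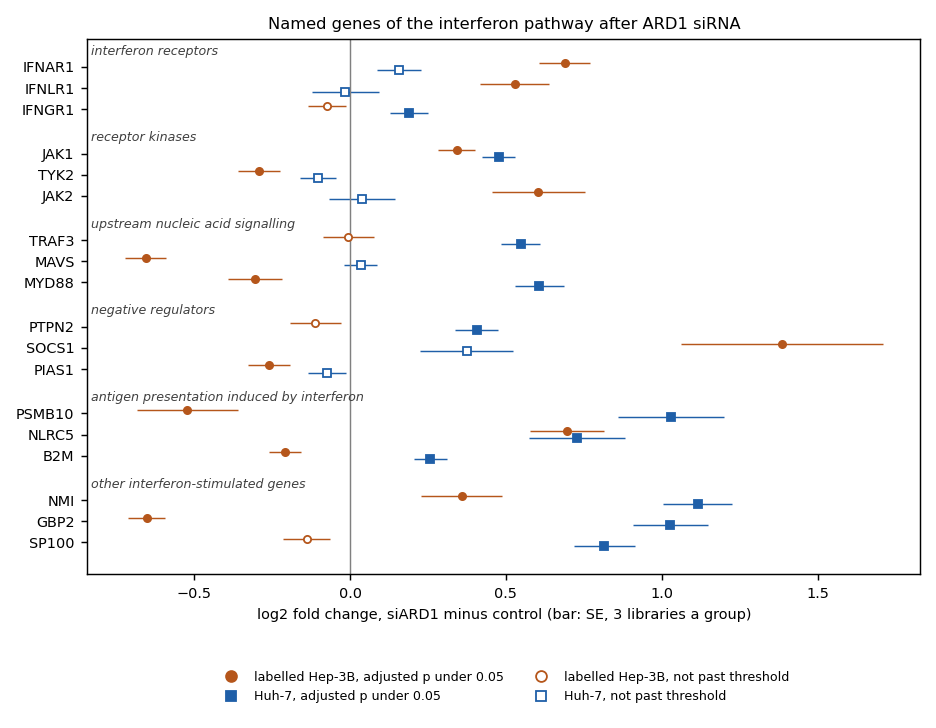
Log2 fold change (siARD1 minus control) of the named pathway genes by list, with bars for the SE over 3 libraries a group, circles for libraries labelled Hep-3B and squares for Huh-7, filled where the adjusted p was under 0.05. MYD88, PSMB10, B2M and GBP2 are filled on opposite sides of 0 in the lines, while JAK1, NLRC5 and NMI are filled on the right in both.

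Of 5 negative regulators, 1 rose and 2 fell under the Hep-3B label and 1 rose and 1 fell in Huh-7. SOCS1, an inhibitor of JAK kinases, rose under the Hep-3B label from 1.02, 0.738 and 0.465 CPM to 2.38, 1.75 and 1.81 CPM (1.38, SE 0.32, edgeR adjusted p = 0.00372) and had 0.37 (SE 0.15, adjusted p = 0.0513) in Huh-7, or 0.037 as adjusted p without siARD1 2. The phosphatase gene PTPN2 rose in Huh-7 (0.41, SE 0.07, adjusted p = 7.58e-05), and PIAS1, a SUMO ligase that restrains STAT signalling, fell under the Hep-3B label (-0.26, SE 0.07, adjusted p = 0.00733). Of the exonic bases of PIAS1, 30.2% overlap CALML4 on the opposite strand.

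Antigen presentation genes induced by interferon had 1 higher and 5 lower of 11 under the Hep-3B label (45.5% lower, against 15.3% of all genes) and 5 higher and 0 lower of 11 in Huh-7 (45.5% higher, against 21.2%). PSMB10, an immunoproteasome subunit, fell under the Hep-3B label from 6.44, 6.15 and 6.25 CPM to 3.96, 3.97 and 5.09 CPM (-0.52, SE 0.16, edgeR adjusted p = 0.0208). It rose in Huh-7 from 3.19, 2.72 and 3.14 CPM to 5.04, 6.81 and 6.38 CPM (1.03, SE 0.17, adjusted p = 5.27e-05). The groups were apart in both lines, and 34.8% of its exonic bases are shared with AC040162.1 on the same strand. B2M, the light chain of MHC class I, fell under the Hep-3B label (-0.21, SE 0.05, adjusted p = 0.00529) and rose in Huh-7 (0.26, SE 0.05, adjusted p = 0.000496). NLRC5, the activator of MHC class I genes, rose in both (0.70, SE 0.12, adjusted p = 0.000341, and 0.73, SE 0.15, adjusted p = 0.000643). The PSMB10 call under the Hep-3B label was lost without siARD1 1 (-0.47, adjusted p = 0.0855) or siARD1 2 (-0.45, adjusted p = 0.0719).

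Among 24 further interferon-stimulated genes outside the 39, 4 rose and 12 fell of 23 tested under the Hep-3B label, and 11 rose and 1 fell of 19 in Huh-7. Those that fell under the Hep-3B label made up 52.2%, against 15.3% of all genes, and those that rose in Huh-7 made up 57.9%, against 21.2%. GBP2, a guanylate-binding GTPase, fell under the Hep-3B label from 130.3, 129 and 129 CPM to 83.4, 80.4 and 82.6 CPM (-0.65, SE 0.06, edgeR adjusted p = 1.72e-06). It rose in Huh-7 from 9.25, 7.72 and 8.76 CPM to 14.8, 20.03 and 16.8 CPM (1.03, SE 0.12, adjusted p = 6.29e-07). Both pairs of groups were far apart, and the interaction was 1.66 (adjusted p = 8.55e-11). NMI, which binds STAT proteins, rose in Huh-7 (1.12, SE 0.11, adjusted p = 7.29e-08) and under the Hep-3B label (0.36, SE 0.13, adjusted p = 0.0439), the latter lost with upper-quartile factors (0.0652), by DESeq2 (0.0592) and without control 1 (0.148), control 2 (0.0885), siARD1 1 (0.0876) or siARD1 3 (0.163), all as adjusted p. SP100, a nuclear body protein, rose in Huh-7 (0.82, SE 0.10, adjusted p = 1.09e-06) and had -0.14 (SE 0.08, adjusted p = 0.174, and 0.0207 without control 1) under the Hep-3B label.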

How the data were processed

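RNA-seq was measured in 12 libraries, 3 in each of 4 groups. Per the labels' protocols, Trizol RNA was cleared of ribosomal RNA before directional library preparation. Per the submitters' processing notes, reads went through cutadapt 4.6 and STAR 2.7.11b with GRCh38. How reads were assigned to genes, with which annotation and whether by strand, is not given in the sources used here. Each line has its own deposited table of raw read counts by Ensembl gene, in which every gene totals at least 2 counts, and 0 columns of values stayed unmapped.

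Each line was fitted alone in R 4.3.3 with edgeR 4.0.16 (filterByExpr with a minimum count of 10 and a minimum total of 15, TMM factors, robust quasi-likelihood fit). Benjamini-Hochberg adjustment ran over all 15762 and 15919 tested genes, with a threshold of 0.05. The difference between lines and the basal difference came from one fit of the 4 groups on 17122 of the 22730 genes in both tables. Each SE was approximated by dividing the size of the log2 fold change by the root of its F statistic. Printed CPM use the TMM factors of that fit of 12 libraries. An exact two-sided permutation test of 3 against 3 libraries cannot give a p under 0.1.

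The values of members and named pathway genes, and the counts and medians over all members, were recomputed with RLE or upper-quartile factors, with DESeq2 1.42.0, with no filter and without each library in turn. Effects within a line were also recomputed with all 4 groups in one fit and with a replicate block. Counts by role, pathway list or marker list were not recomputed. The steps were also run on simulated counts with the same spread set for every gene. Spread between the real replicates varied, so that run does not measure how well effects of the sizes reported here are found. Exonic lengths, gene overlaps and positions came from GENCODE v29 (GRCh38). The trace between lines is the median over genes with 100 CPM or more in the controls of one line and a level at least 1000 times lower in those of the second line (29 and 30 genes). Full library values are given for members past the threshold in both lines or in the difference between lines. From each pathway list, up to 3 genes past the threshold were named by lowest p. Listed genes not named in the text include 2 that are not reported here. Members and lists were chosen with earlier results of these data known. Plots were made in matplotlib 3.10.9.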

Additional observations from a re-analysis of the deposited data

Results flagged for a closer look

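The genes below had an siARD1 effect that differed between the lines, by the interaction of edgeR's quasi-likelihood fit with Benjamini-Hochberg adjustment over all genes. Each value is the log2 effect in Huh-7 minus that under the Hep-3B label, followed by its adjusted p. Of all genes, 31.4% passed the same test, so a difference of this kind was common.

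Among the members it was positive for the antiviral enzymes and RNA-binding proteins OAS1 (0.99, 3.48e-07), OAS2 (1.29, 0.0471), OAS3 (0.47, 0.000274), IFIT2 (0.67, 0.0265), IFIT3 (0.79, 0.00149), ADAR (0.31, 0.0037) and DDX60 (0.52, 0.0114). It was also positive for PARP9 (0.59, 0.000606), DTX3L (0.82, 9.56e-08) and PARP14 (0.46, 5.32e-05), and for MX1 (0.72, 0.0356), ISG20 (0.41, 0.0292) and TRIM21 (0.56, 0.00722). It was negative for EIF2AK2 (-0.33, 0.0155), the gene of PKR.

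Among the pathway genes it was positive for the adaptors and relays MAVS (0.67, 1.02e-06), MYD88 (0.90, 2.01e-06) and TRAF3 (0.54, 0.000166), for PSMB10 (1.53, 1.56e-05) and B2M (0.45, 5.2e-05) of antigen presentation, and for GBP2 (1.66, 8.55e-11), SP100 (0.94, 1.48e-06), NMI (0.74, 0.0016), PTPN2 (0.50, 0.000927) and IFNGR1 (0.24, 0.0322). It was negative for IFNAR1 (-0.55, 0.000445), IFNLR1 (-0.56, 0.00651), JAK2 (-0.58, 0.0147) and SOCS1 (-1.02, 0.0204). The JAK2 difference was lost without control 1 of the Hep-3B label (-0.43, adjusted p = 0.0726), and the SOCS1 difference was lost without control 3 (-0.76, adjusted p = 0.101) or siARD1 1 (-0.89, adjusted p = 0.0619) of the Hep-3B label. The targeted gene itself differed, with NAA10 at -1.995 (1.56e-05), and the depth of its knockdown, the line and the handling of each line cannot be told apart in these interactions.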

How the results depend on the processing

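With upper-quartile factors the members' median log2 fold change was -0.0851 under the Hep-3B label and 0.185 in Huh-7, and with all 4 groups in one fit it was 0.227 in Huh-7. Values near 0 turned sign with upper-quartile factors for OAS3 (-0.00221), IRF7 (-0.031), IFI27 (-0.0307) and IFI35 (-0.0139) under the Hep-3B label, for MAVS (-0.0298) and JAK2 (-0.0251) in Huh-7 and for the basal difference of PARP9 (0.0107). Leaving out 1 library at a time, the members that fell numbered 4 to 7 under the Hep-3B label and 3 to 4 in Huh-7, with medians of -0.0858 to -0.00567 and 0.248 to 0.295. Members past the interaction numbered 10 to 15, against 14 with all libraries, and 17 by DESeq2. None of the turns in sign below or above was of a value past the threshold, and their cause was not tested. Leaving out 1 library, log2 fold changes under the Hep-3B label that turned sign were RIGI -0.146 to 0.467, OAS3 -0.000775 to 0.0812, IFIT2 -0.217 to 0.108, IFIT3 -0.0878 to 0.0284, IFIT5 -0.0472 to 0.0752, IRF7 -0.041 to 0.0556, IRF9 -0.247 to 0.0837, UBE2L6 -0.202 to 0.00184, USP18 -0.194 to 0.0333, HERC6 -0.437 to 0.0718, IFI27 -0.0227 to 0.0236, IFI35 -0.040009 to 0.0941, IFI44L -0.132 to 0.0107, MX1 -0.203 to 0.0801 and TRAF3 -0.0574 to 0.0501. In Huh-7 they were HERC6 -0.0645 to 0.395, BST2 -0.318 to 0.131 and IFNLR1 -0.0739 to 0.0279. Basal differences that turned sign were RIGI -0.0254 to 0.303, HERC6 -0.326 to 0.0484, PARP9 -0.138 to 0.0377 and TRAF3 -0.0106 to 0.0882, and interactions were TRIM25 -0.114 to 0.0611, OASL -0.234 to 0.801 and NLRC5 -0.13 to 0.117. The labels do not say whether same-numbered libraries were paired, and the main fits did not pair them. Deviations of same-numbered libraries correlated at 0.0348 to 0.0649 under the Hep-3B label, where each control matched its own number best, and at -0.0639 to 0.052 in Huh-7. With the replicate block, 5 members rose and 7 fell under the Hep-3B label (5597 genes called, against 5070), and 14 rose and 4 fell in Huh-7 (6328, against 6388). The block ended the IRF9 call in Huh-7 (-0.48, adjusted p = 0.0525) and let TRIM25 pass under the Hep-3B label (0.17, adjusted p = 0.0472). Members with few counts, such as RIGI and HERC6, are limited by depth.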
